A study of Mus musculus with 7 samples.

Results

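The short-list peaks that lie in introns are 5570 stretches of RNA, annotated as intronic, that were recovered with an antibody to EZH2 from mouse embryonic stem cells. They were chosen as the entries of the authors' short list of 10043 peaks whose largest share of bases on the peak's own strand is intron in the GENCODE M21 annotation of mm10. They make up 55.5% of the short list, and the count table as a whole held 303889 features. Of the other short-list peaks, 3937 lay outside genes on their strand and 536 lay in exons. Transcripts outside the basic annotation set had exons on the same strand in 290 of the peaks, and in 106 (1.90%) these covered 50% or more of the length, so RNA before and after splicing cannot be told apart there. A total of 5320 intronic peaks fell in 1 gene and 250 in several overlapping genes. The single-gene peaks had 2300 host genes, of which 2041 are protein-coding.

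RNA immunoprecipitation followed by sequencing (RIP-seq) recovers RNA that comes down with a protein or with whatever else the antibody binds. EZH2 is the histone methyltransferase of Polycomb repressive complex 2, which marks silenced genes. SAFB and SAFB2, the scaffold attachment factors, are nuclear RNA-binding proteins with an RNA recognition motif and arginine- and glycine-rich stretches. Introns are copied along with exons and are then spliced out and usually degraded in the nucleus, so intronic reads come from RNA before or during splicing. Binding of SAFB proteins to purine-rich RNA, and much of it within introns, has been described in mammalian cells. The series title names cross-reaction of an EZH2 antibody with SAFB, and the comparisons asked which precipitated RNA depended on each protein.

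Precipitates came from 3 genotypes of a male CAST/B6 stem cell line that carries a recombinase cassette exchange site at Rosa26. SAFB DKO cells lacked Safb and Safb2 (clones 13 and 4, here SAFB DKO 1 and 2). EZH2 KO cells lacked Ezh2 (clones 12 and 19, EZH2 KO 1 and 2). WT cells were the parental line (WT 1) and clones 20 and 44 (WT 2 and 3). All of them grew in medium with 15% serum at 37 °C and 5% CO2 and received doxycycline for 3 days, and the labels do not say what it induced. Each replicate is 1 clone or the parental line, so differences between clones enter every comparison.

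Total counts were 18738499 and 15812517 in SAFB DKO, 7050832 and 8353603 in EZH2 KO, and 19024702 to 21832539 in WT. The deleted genes matched the labels. Features of Safb summed to 1.41 and 0.592 CPM in SAFB DKO, 284 and 314 CPM in EZH2 KO, and 117 to 245 CPM in WT. Those of Safb2 summed to 2.92 and 0.807 CPM in SAFB DKO, 615 and 749 CPM in EZH2 KO, and 124 to 302 CPM in WT. Those of Ezh2 summed to 2.26 and 0.157 CPM in EZH2 KO against 165 to 202 CPM in WT. CPM are counts per 1000000 of the scaled library size. They and the fold changes are thus relative to other features of the same precipitates. How much RNA each precipitate held is not known here. The labels record 1 µL of ERCC spike-in with 9 µL of each precipitate, and it was not used for scaling. Of the 10 embryonic stem cell markers 9 had features, and they summed to 1691 and 1690 CPM in SAFB DKO, 943 and 1061 CPM in EZH2 KO, and 1189 to 1261 CPM in WT. Fibroblast markers summed to between 8.88 and 16.6 CPM in all 7 libraries, with 5 of 10 at 0. Endoderm markers summed to 112 and 134 CPM in SAFB DKO, 177 and 167 CPM in EZH2 KO and 133 to 157 CPM in WT, mesoderm markers to between 20.6 and 49.2 CPM in the 7 libraries, and neural markers, mostly Nes, to 74.99 and 75.29 CPM in SAFB DKO, 176 and 144 CPM in EZH2 KO and 186 to 259 CPM in WT. The part of these differences in the results was not tested. In bulk precipitates like these, fewer cells of a type, less RNA per cell and less recovery with the antibody cannot be told apart.

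The sequences below show what purine-rich stretches in these peaks look like. Sequence was taken where a GENCODE M21 transcript of either strand covers bases of a peak outside basic-set exons of its own strand. Covering transcripts on the peak's own strand are thus outside the basic set. This gave at least 200 bases for 355 of the 5570 peaks (6.37%). Each line is 30 bases of mm10 on the strand of the host gene, 5′ to 3′, with GAAGA in capitals. GAAGA was searched on that strand alone, and matches that overlap were each counted. The first 4 windows were chosen for their matches and for peaks of different levels, and 2 windows without a match follow for contrast.
Map4, chr9:110037571-110037600, plus strand: GAAGAaaaaGAAGAAGAaaccaaagcaaaa
Rfx7, chr9:72604071-72604100, plus strand: GAAGAaagaaatcGAAGAAGAcccaGAAGA
Ank3, chr10:69988800-69988829, plus strand: GAAGAAGAAGAgctggcagccGAAGAgtcc
Cep57l1, chr10:41801751-41801780, minus strand: GAAGAgcgtgaggGAAGAggtagatctgag
Map4, centre of the same peak, chr9:110038989-110039018, plus strand: caggtatagccacagaggaaggcgctgacc
Orc3, chr4:34592073-34592102, minus strand: ttggatttggaatacagtggaatgctttaa

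Exons of transcripts outside the basic set covered the Rfx7 and Ank3 peaks in full on the same strand, and 97.2% of the Map4 peak, 26.1% of the Cep57l1 peak and 12.1% of the Orc3 peak. These windows were picked for their matches, so the whole covered sequence is the better measure. Over the 355 covered peaks, GAAGA occurred 3.30 times per kb, against 1.90 per kb in 6461 intronic features that are in neither of the authors' peak lists. Its reverse complement TCTTC occurred 1.74 times per kb in the peaks and 1.99 per kb in the unlisted features. Pseudogene sequence was present in 10.4% of the covered peaks and 3.30% of the unlisted features. Without it, GAAGA occurred 3.46 and 1.91 times per kb. The peaks differed by where their sequence came from: 215 covered by transcripts of their own strand had 3.74 GAAGA and 1.25 TCTTC per kb, and 140 covered in other ways had 2.51 and 2.63. The unlisted features had 1.90 GAAGA and 1.77 TCTTC per kb on transcripts of their own strand, and 1.87 and 2.83 otherwise. Among consecutive windows of 200 bases, 43.4% of 1261 in the peaks and 29.9% of 12385 in the unlisted features held a GAAGA. Adenine made up 29.6% of bases in the peaks and 24.8% in the unlisted features, and the related words AGAAG and AAGAA were also denser, at 3.17 and 3.47 per kb against 2.07 and 2.09 per kb. Covered peaks are a small and selected share of all, and a match is a description and not a binding site. The Map4 peak, in the gene of a microtubule-associated protein, held 17 matches in 3015 covered bases, and the Orc3 peak, in the gene of an origin recognition complex subunit, held 0 in 275. In the best window of 239 hosts, 49 held no GAAGA.

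The intronic peaks were spread over long genes. Their median width was 1355 bases (quartiles 846 and 1921), and 222 lay on chromosome X and 0 on chromosome Y. Host genes had a median length of 95.4 kb, against 25.4 kb for 10859 genes that had unlisted intronic features and no peak. A total of 1231 hosts had a single peak, 796 had 2 to 4 and 273 had 5 or more. Among 5112 peaks that could be placed in a numbered intron, 24.7% were in the first intron, whereas 33.7% of 127429 placed unlisted intronic features were. Only 4.76% of the single-gene peaks were within 5 kb of the gene start, against 12.8% of unlisted features, and the median distance was 67.8 kb against 35.9 kb. The short list had a count threshold that does not scale with width: 30 of its intronic peaks stood at the lowest pooled WT count, 93 reads, and 29 other filtered intronic peaks stood at 92. The median pooled WT count of the intronic short-list peaks was 361.

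As a class, intronic peaks nearly emptied out of the SAFB DKO precipitates and took a larger share of the EZH2 KO ones. They held 0.931% and 1.07% of counts in SAFB DKO, 13.5% and 14.6% in EZH2 KO, and 8.02%, 8.18% and 7.93% in WT. The exact 95% Clopper-Pearson intervals of single libraries were narrow, for example 13.5% to 13.5% in EZH2 KO 1, so counting error was small beside the differences. The groups did not overlap, with SAFB DKO lowest and EZH2 KO highest. The mean share was 8.05 times lower in SAFB DKO than in WT (1.00% ± 0.0966 against 8.04% ± 0.126, SD, n = 2 and 3). It was 1.75 times as high in EZH2 KO as in WT (14.04% ± 0.782, n = 2). Each exact two-sided permutation p against WT was 0.1, the smallest that 2 libraries against 3 allow (adjusted p = 0.171 over the 12 share and ratio comparisons), and SAFB DKO against EZH2 KO gave 0.33, the smallest for 2 against 2. Peaks were listed on WT counts, so a fall from WT is in part built into the list. SAFB DKO against EZH2 KO has no WT library in either arm, but it compares the same listed peaks. How the authors filtered them is not known here, so this contrast is not independent of the list either.

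Ratios within a library do not depend on library scaling, and they gave the same order of groups. The first ratio was that of peak reads to reads in exonic features of the same host genes outside the authors' filtered list. It was 0.146 and 0.154 in SAFB DKO, 2.37 and 2.72 in EZH2 KO, and 1.32, 1.31 and 1.24 in WT. That is 8.60 times lower in SAFB DKO than in WT, and 1.97 times as high in EZH2 KO as in WT. Against unlisted intronic features the ratio was 0.0383 and 0.0446 in SAFB DKO, 0.569 and 0.624 in EZH2 KO, and between 0.3329 and 0.339 in WT. Against short-list peaks outside genes it was far more even, at 2.40 and 2.37 in SAFB DKO, 2.96 and 2.99 in EZH2 KO, and 2.66, 2.91 and 2.61 in WT. The intronic peaks thus changed against unlisted exonic features of their own genes by about as much as their share did. They changed much less against short-list peaks elsewhere. Exact permutation p-values of these ratios were 0.1 against WT, except 0.2 for EZH2 KO against WT relative to short-list peaks outside genes (adjusted p = 0.3), and 0.33 between the knockouts.

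**Figure D1:**
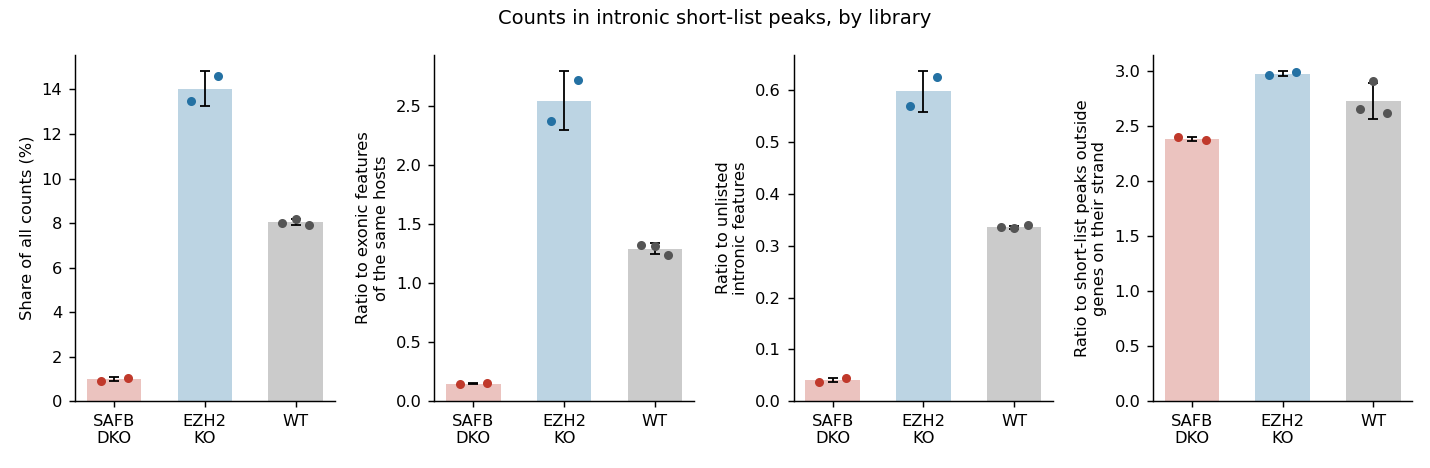
Share of counts in the 5570 intronic short-list peaks (percent, left) and 3 ratios of their counts to other features of the same library, by group. Bars are means, error bars SD and dots single libraries; the share is 0.931% to 1.07% in SAFB DKO, 13.5% to 14.6% in EZH2 KO and 7.93% to 8.18% in WT, while the ratio to short-list peaks outside genes stays between 2.37 and 2.99.

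The most abundant intronic peak lay in Etl4, a gene known in mouse for its role in the intervertebral disc. This peak, on chromosome 2 from 20537705 to 20542067 in intron 4, had 66.7 and 60.9 CPM in SAFB DKO, 1565 and 2218 CPM in EZH2 KO, and 681, 695 and 690 CPM in WT. The 3 groups did not overlap. It fell in SAFB DKO against WT (log2 fold change -3.43 ± 0.15 SE, adjusted p = 2.9e-09) while EZH2 KO was higher than WT by log2 1.46 ± 0.13 (adjusted p = 9.4e-06), both by edgeR's quasi-likelihood test with Benjamini-Hochberg adjustment over all tested features.

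The other abundant peaks followed the same order in SAFB DKO. The Tead1 peak, in the gene of a DNA-binding partner of the Hippo pathway coactivator YAP, had 24.4 and 21.7 CPM in SAFB DKO, 726 and 873 CPM in EZH2 KO, and 235, 267 and 183 CPM in WT. It had the largest rise in EZH2 KO among the 9 abundant peaks described here, at log2 1.81 ± 0.15 SE (adjusted p = 7.0e-06). The peak in Cnot1, the scaffold of the CCR4-NOT deadenylase, had 70.3 and 79.5 CPM in SAFB DKO, 689 and 849 CPM in EZH2 KO, and 376, 399 and 395 CPM in WT. Its fall in SAFB DKO against WT was 5.20-fold, the smallest of the 9. The peak in Mid1, which encodes a microtubule-associated ubiquitin ligase, had 22.2 and 28.0 CPM in SAFB DKO, 247 and 1103 CPM in EZH2 KO, and 508, 556 and 263 CPM in WT. Its EZH2 KO libraries lay on either side of WT, and it was not called there (adjusted p = 0.30).

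All 9 fell in SAFB DKO against WT, by 5.20- to 17.6-fold, and in EZH2 KO 6 of the 9 rose. The 3 that were not called in EZH2 KO were that of Mid1 and both peaks shared by the predicted genes Gm20388 and Gm42047, at 857 and 997 CPM in EZH2 KO against 835, 765 and 842 CPM in WT for the more abundant one. The remaining peaks lay in Tdrd12, a Tudor-domain gene of the piRNA pathway, Cers5, which encodes a ceramide synthase, and Map4. The Map4 peak, whose sequence is shown above, had 32.7 and 33.4 CPM in SAFB DKO, 537 and 728 CPM in EZH2 KO, and 227, 233 and 220 CPM in WT.

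**Figure D2:**
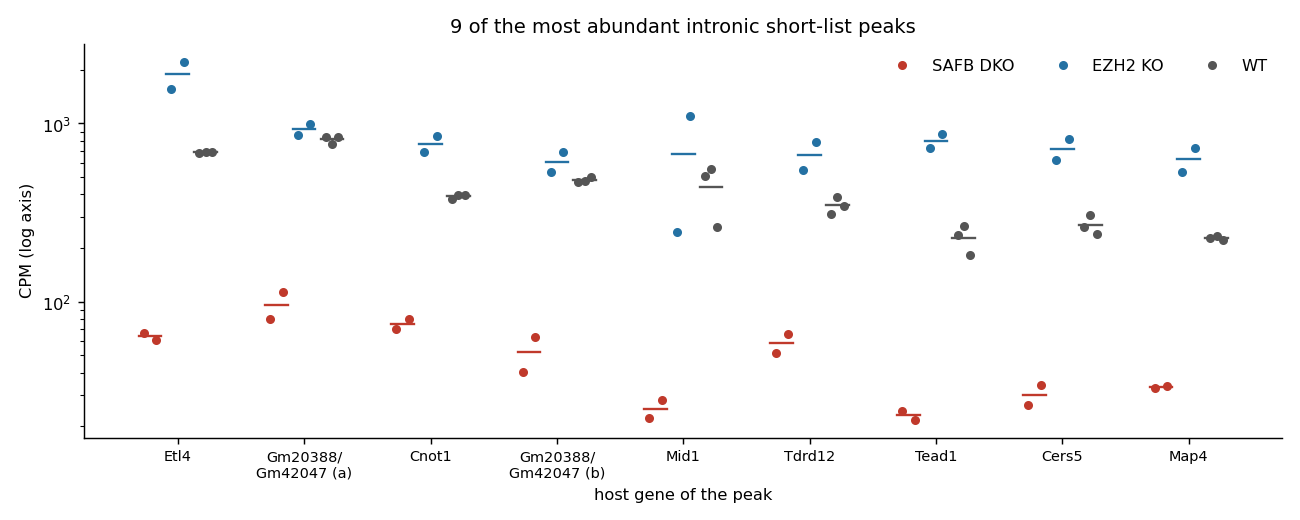
CPM (log axis) of 9 of the most abundant intronic short-list peaks in each library, by host gene and group; dots are libraries and lines are means. SAFB DKO dots lie lowest for every peak, such as 60.9 and 66.7 CPM for Etl4 against 681 to 695 CPM in WT, and the EZH2 KO dots of Mid1 span 247 to 1103 CPM.

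In SAFB DKO against WT, 5470 of the 5570 intronic peaks fell (98.2%) and 0 rose, also 0 at an unadjusted p under 0.05 and 0 by DESeq2. Of all 192964 tested features, 17.4% fell and 2.26% rose, 19.7% in all. The list was chosen on WT counts and its count is not independent evidence of a fall. The median log2 fold change of the peaks was -3.33 (5th to 95th percentile -5.66 to -1.99), while unlisted intronic features had a median log2 fold change of -0.17. The fall was not particular to introns. Of short-list peaks outside genes on their strand 95.25% fell (median -3.17), and of those in exons 96.1% (median -2.76), with 0 risen in either set. Both SAFB DKO libraries were below all WT libraries in 5563 peaks, a pattern held by 34.1% of tested features, while 18.7% had both above. The median peak had 0.593 and 0.700 CPM in SAFB DKO against 5.84, 5.84 and 5.64 CPM in WT. A total of 165 peaks had no read in either SAFB DKO library, and for those the WT level was at least 26.0-fold higher in the median, taking 3 counts over the group as the floor.

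Among peaks of at least 5 CPM, taken as the mean of the 3 group means, the deepest falls left few reads in SAFB DKO. The peak in Pcca, which encodes a subunit of propionyl-CoA carboxylase, had 0.0456 and 0 CPM in SAFB DKO, 13.1 and 16.8 CPM in EZH2 KO, and 5.33, 4.66 and 5.33 CPM in WT. That is 1 read in SAFB DKO, so the WT level was 207 times as high with an exact 95% counting interval of 36.8 to 8184. The peak in Ptk2b, a focal adhesion kinase gene, also had 1 read in SAFB DKO, and WT was 151 times as high (26.9 to 5996). The peak in Samd4, which encodes an RNA-binding repressor of translation, had 0.274 and 0 CPM in SAFB DKO against 14.8, 12.8 and 12.5 CPM in WT. Peaks in Atrnl1 and in Jph1, the gene of a junctional membrane protein, were the others of the 5 deepest falls, with 3 and 2 reads in SAFB DKO, at 105 and 96.4 times as high in WT (35.8 to 513 and 26.5 to 800). In each of these 5 peaks every SAFB DKO library was below every WT library, which follows from their choice as the deepest falls. The same held in 5563 of the 5570 intronic peaks and 34.1% of tested features.

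Among peaks with no SAFB DKO read, the highest WT level was in Cacnb2, a calcium channel subunit gene. It had 0 and 0 CPM in SAFB DKO, 6.46 and 3.93 CPM in EZH2 KO, and 7.22, 8 and 8.67 CPM in WT, at least 107-fold higher in WT. Gria4, an AMPA glutamate receptor gene, and Mcc followed, at least 74.1- and 67.0-fold higher in WT.

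The smallest falls that passed the test were in Rnf213, which encodes a large ubiquitin ligase. This peak had 4.33 and 2.21 CPM in SAFB DKO, 17.9 and 22.5 CPM in EZH2 KO, and 6.07, 6.45 and 5.79 CPM in WT (log2 -0.89 ± 0.30 SE against WT, adjusted p = 0.0467). Peaks in Mxi1, a MYC antagonist gene, Ephx1, an epoxide hydrolase gene, Slfn9 and Micu2, a regulator of the mitochondrial calcium uniporter, fell by 2.21- to 2.29-fold. The call of Rnf213 was lost with DESeq2 (log2 -0.64), by column totals (-0.67), by scaling on all features (-0.80) and without SAFB DKO replicate 2 (-0.52) or any 1 WT replicate (-0.86 to -0.95). The calls of Mxi1, Ephx1 and Micu2 were lost with DESeq2 (-0.89 to -0.93), and those of Mxi1 and Micu2 by column totals (-0.92 and -0.97). Micu2 was also lost by scaling on all features (-1.10). Mxi1 also needed SAFB DKO replicates 1 and 2 and WT replicate 2 (-1.33, -1.01 and -0.71 without them), and Ephx1 SAFB DKO replicate 2 and WT replicates 1 and 2 (-0.93, -1.23 and -1.04). Micu2 needed SAFB DKO replicate 1 and every WT replicate (-0.71 and -1.11 to -1.28), and Slfn9 SAFB DKO replicate 2 (-1.05). Of the 100 peaks that did not pass, the following were chosen after their values were seen. The Ears2 peak had 3.47 and 3.12 CPM in SAFB DKO against 5.97, 5.32 and 6.42 CPM in WT (adjusted p = 0.074). The peak in Zbp1, a sensor of Z-form nucleic acid, and that in Gm10801 were the 2 with a log2 fold change above 0, at 0.31 ± 0.39 and 0.04 ± 0.80 SE.

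In EZH2 KO against WT, 2770 intronic peaks rose (49.7%), 43 fell and 2757 did not pass the test. A rise is relative to other features of the precipitates, and whether more RNA was recovered was not tested. Of all tested features, 7.50% rose and 8.07% fell, 15.6% in all. The median peak was 1.96 times as high in EZH2 KO (log2 0.97), where tested features outside the authors' filtered list had a median of -0.34 and unlisted intronic features -0.23. Among other short-list peaks, 30.6% of those outside genes on their strand rose (median 0.71) and 59.0% of those in exons (median 1.03). Both EZH2 KO libraries were above all WT libraries in 3847 peaks and below them in 236, against 20.2% and 31.2% of tested features. Scaling by column totals put the median of features outside the filtered list at -0.59 and that of the peaks at 0.71, with 2252 rising and 90 falling. Without EZH2 KO replicate 2 the counts were 2133 and 232, and without WT replicate 1, 2 or 3 the count that rose was 1774, 1827 or 1830. With the replicate number as a block 1874 rose and 18 fell. Among the 3555 peaks with a mean of at least 50 counts, tested alone with other features of that level, 2965 rose and 14 fell, with a median of 1.31 against -0.06 for features outside the filtered list. The EZH2 KO columns are named by another pattern than the rest, and if they come from another sequencing run, genotype and run cannot be told apart.

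The largest rise in EZH2 KO among peaks of at least 5 CPM was in Hormad2, which encodes a meiotic chromosome axis protein. This peak had 13.7 and 7.53 CPM in SAFB DKO, 376 and 529 CPM in EZH2 KO, and 37.0, 37.6 and 33.0 CPM in WT. It was 12.6-fold higher in EZH2 KO than in WT (log2 3.66 ± 0.21 SE, adjusted p = 3.3e-07), while its fall in SAFB DKO against WT was 3.36-fold. Peaks in the predicted gene Gm15286, in Wbp2nl, known for a sperm head protein, in Gm11635 and in Dpp4, a dipeptidyl peptidase gene, rose by 7.55- to 10.1-fold in EZH2 KO. The Dpp4 peak had 51.6 and 64.3 CPM in EZH2 KO against 7.77, 7.81 and 7.41 CPM in WT.

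Few peaks fell in EZH2 KO, and the deepest fall among those of at least 5 CPM was in a short peak of 101 bases in Gm33321, with 4.81 and 3.62 CPM in EZH2 KO against 20.5, 20.5 and 31.8 CPM in WT. The peak in Xkr4, a gene of the XK family, had 2.56 and 4.25 CPM in EZH2 KO against 12.5, 11.8 and 13.2 CPM in WT (log2 -1.88 ± 0.33 SE, adjusted p = 0.0012). Peaks in Ssr1, a translocon-associated protein gene, Dpp6 and Sema6a, a semaphorin gene, had log2 fold changes of -1.46, -1.26 and -1.23, all past the test. The Ssr1 call was lost without WT replicate 1 (-1.22), and that of Sema6a without EZH2 KO replicate 1 (-0.90), without any 1 WT replicate (-1.16 to -1.25) and with the replicate number as a block (-1.21). The most abundant fallen peak, chosen after its values were seen, was another of Sema6a, with 30.7 and 23.3 CPM in EZH2 KO against 62.2, 50.6 and 73.2 CPM in WT (log2 -1.20 ± 0.21 SE, adjusted p = 0.0014). All 43 also fell in SAFB DKO against WT. Of the 5470 peaks that fell in SAFB DKO, 2753 rose in EZH2 KO, and of the 100 that did not pass in SAFB DKO, 17 did. Both comparisons use the same WT libraries.

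Set directly against EZH2 KO, 5426 intronic peaks fell in SAFB DKO (97.4%) and 0 rose, with 1 higher at an unadjusted p under 0.05 and 1 risen by DESeq2, where 23.3% of tested features fell and 16.6% rose, 39.9% in all. Both SAFB DKO libraries were below both EZH2 KO libraries in 5426 peaks and above them in 1, that of Gm10801, against 30.3% and 34.2% of tested features. The median peak was 19.8 times lower in SAFB DKO than in EZH2 KO (log2 -4.31), against a median log2 fold change of 0.13 for unlisted intronic features. Among other short-list peaks, 91.0% of those outside genes on their strand fell (median -3.91) and 97.8% of those in exons (median -3.86). WT libraries are not in either arm of this contrast, but its peaks were listed on WT counts. The WT libraries also share its estimate of spread and its scaling, and without 1 WT replicate 5361 to 5368 peaks fell. The deepest falls among peaks of at least 5 CPM were those of Ptk2b, Pcca, Atrnl1 and Jph1, joined by Thsd4. Both comparisons use the same SAFB DKO libraries, so this is no repeat. The level cut includes EZH2 KO, so peaks high there pass more easily. The Thsd4 peak had 2 reads in SAFB DKO (0.0912 and 0 CPM) against 13.8 and 11.5 CPM in EZH2 KO, which was 257 times as high with a counting interval of 70.0 to 2139. The smallest called falls of at least 5 CPM were in Smoc1, a matrix calcium-binding protein gene, and Ccdc40, a cilia assembly gene, each 3.43 times lower in SAFB DKO, followed by Ncoa1, a nuclear receptor coactivator gene, Gm12690 and Ears2. The Smoc1 peak had 3.33 and 3.93 CPM in SAFB DKO against 8.42 and 16.5 CPM in EZH2 KO. A total of 144 peaks were not called, and the Gm33321 peak, chosen after its values were seen, had 2.97 and 4.90 CPM in SAFB DKO against 4.81 and 3.62 CPM in EZH2 KO.

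**Figure D3:**
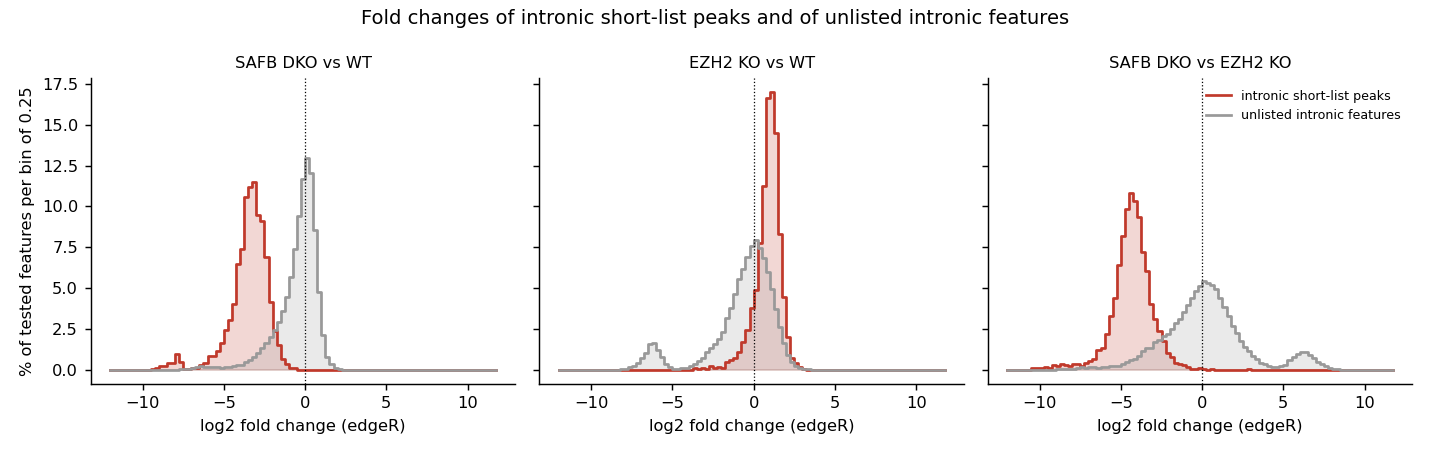
Distribution of log2 fold changes (bins of 0.25) of intronic short-list peaks and of unlisted intronic features in the 3 comparisons, as a percent of each set. The peaks centre on -3.33 in SAFB DKO vs WT, 0.97 in EZH2 KO vs WT and -4.31 in SAFB DKO vs EZH2 KO, and the unlisted features on -0.17, -0.23 and 0.13.

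The peaks moved apart from the unlisted exonic features of their own genes. For 1838 hosts that could be fitted, peak reads were compared with reads in exonic features outside the filtered list, with the library as a block. Exonic peaks on that list were left out, so listed peaks are set against unlisted features. Relative to their exons, the peaks of 1754 hosts fell in SAFB DKO against WT (95.4%) and those of 2 rose (0.109%), with a median log2 change of -3.17. In EZH2 KO against WT the peaks of 1187 hosts rose (64.6%) and those of 6 fell (0.326%), with a median of 1.24. In SAFB DKO against EZH2 KO 1762 fell (95.9%) and 3 rose (0.163%), with a median of -4.50. The unlisted exonic features themselves had median log2 changes of 0.02, -0.22 and 0.27 in the 3 comparisons. The scaling was also set by features outside the filtered list, so medians near 0 are in part built in. Across 1823 hosts with reads in both parts, the change of peaks and that of exons had a Spearman rho of 0.20 in SAFB DKO against WT, given as a description since both use the same libraries.

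Rps6ka6, an X-linked ribosomal S6 kinase gene, showed the split in both knockouts. Its 2 peaks summed to 0.593 and 1.45 CPM in SAFB DKO, 44.5 and 64.6 CPM in EZH2 KO, and 23.7, 27.1 and 24.0 CPM in WT. Its exonic features summed to 15.9 and 25.1 CPM in SAFB DKO, 3.61 and 5.03 CPM in EZH2 KO, and 11.1, 11.2 and 14.1 CPM in WT. Peaks were lowest and exons highest in SAFB DKO, and the reverse held in EZH2 KO. Relative to exons the peaks changed by log2 -5.41 ± 0.34 SE against WT in SAFB DKO (edgeR's quasi-likelihood test, adjusted p = 4.0e-09). The corresponding change in EZH2 KO was 2.61 ± 0.33 SE (adjusted p = 2.4e-05).

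Uchl3, a ubiquitin hydrolase gene, had a larger peak and fewer exonic reads. The peak had 5.47 and 5.54 CPM in SAFB DKO, 190 and 236 CPM in EZH2 KO, and 91.3, 88.6 and 78.9 CPM in WT. Its exonic features had 3.42 and 3.34 CPM in SAFB DKO, 1.05 and 0.157 CPM in EZH2 KO, and 2.48, 2.31 and 2.77 CPM in WT. Against exons the peak was log2 -7.71 ± 0.46 SE lower in SAFB DKO than in EZH2 KO. The other hosts with the deepest falls in SAFB DKO against WT were Hmgb1, a chromatin protein gene, Arnt2, a transcription factor gene, and Prkcb, a protein kinase C gene, at log2 -5.24 to -5.58. Hosts with 0 peak or exonic reads in any library were passed over in these rankings. Kcnq3 was among them, at log2 8.22 in EZH2 KO with 0 exonic CPM in each EZH2 KO library. Among the rest, the largest rises in EZH2 KO were log2 3.73 to 4.08. They were in Tspan7, a tetraspanin gene, Platr28, a long noncoding RNA gene, 1110059E24Rik and Hist1h2be, annotated as a histone gene. Each of them had fewer exonic reads in EZH2 KO than in WT. Exonic reads were few in EZH2 KO for Tspan7 (0.150 and 0.786 CPM) and Platr28 (0.451 and 0.157 CPM). The Tspan7 peak itself was not called in EZH2 KO. Mtx2, a mitochondrial membrane protein gene, was the deepest fall against exons between the knockouts, at log2 -8.05 ± 0.91 SE.

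Few hosts went the other way. In Zfp873, a zinc finger gene, the peak had 0.593 and 0.861 CPM in SAFB DKO against 3.49, 2.45 and 1.88 CPM in WT, and the exonic features 0.319 and 0.484 CPM in SAFB DKO against 3.68, 4.42 and 6.21 CPM in WT. Both were lower in SAFB DKO, the exons more so, and the peak rose by log2 1.71 ± 0.73 SE relative to exons (adjusted p = 0.036). That call was lost without either SAFB DKO replicate (1.68 and 1.74) and without WT replicate 2 or 3 (1.72 and 1.31). The smallest relative falls were in Brip1os, an antisense RNA gene, Auh, an RNA-binding enoyl-CoA hydratase gene, and Jam2, a junctional adhesion gene, at log2 -0.59, -0.90 and -0.92. The call of Brip1os was lost without either SAFB DKO replicate or WT replicate 1 or 3 (-0.44 to -0.65) and that of Jam2 without SAFB DKO replicate 2 (-0.62). Auh exons had 8.44 and 8.02 CPM in SAFB DKO, 62.2 and 58.5 CPM in EZH2 KO, and 22.3, 31.0 and 22.7 CPM in WT, the same order as its peak, at 5.79 and 5.38, 79.8 and 95.1, and 33.0, 36.6 and 26.5 CPM. In EZH2 KO, peaks fell relative to exons in Mmrn2, a vascular matrix gene, 9030624G23Rik, Zfp597 and Glis2, zinc finger genes, at log2 -2.30 to -0.83, while the exons of all 4 had more CPM in both EZH2 KO libraries than in any WT library. The calls of Mmrn2, 9030624G23Rik and Glis2 were lost without EZH2 KO replicate 1, and that of Zfp597 without EZH2 KO replicate 2. All 4 were also lost without WT replicate 1, and log2 under these omissions lay between -1.95 and -0.52. Those of 9030624G23Rik and Zfp597 were lost without WT replicate 2 or 3 as well, and that of Glis2 without WT replicate 3. On coding exons alone the calls of Zfp597 and Glis2 were lost as well (-0.93 and -0.25). Against EZH2 KO, the peaks of Zfp738 and Ccdc73 rose relative to exons in SAFB DKO, at log2 1.15 and 0.91, and among the 4 highest called changes Brip1os and Zfp110 had -0.81 and -0.85. The call of Ccdc73 was lost without SAFB DKO replicate 2 (0.37), without either EZH2 KO replicate (0.81 and 0.98) and without WT replicate 1 (0.91). That of Zfp738 was lost without SAFB DKO replicate 1 (0.74) or EZH2 KO replicate 1 (0.65), that of Brip1os without EZH2 KO replicate 1 (-0.61), and that of Zfp110 without SAFB DKO replicate 2 (-0.55), EZH2 KO replicate 2 (-0.53) or WT replicate 2 (-0.85).

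**Figure D4:**
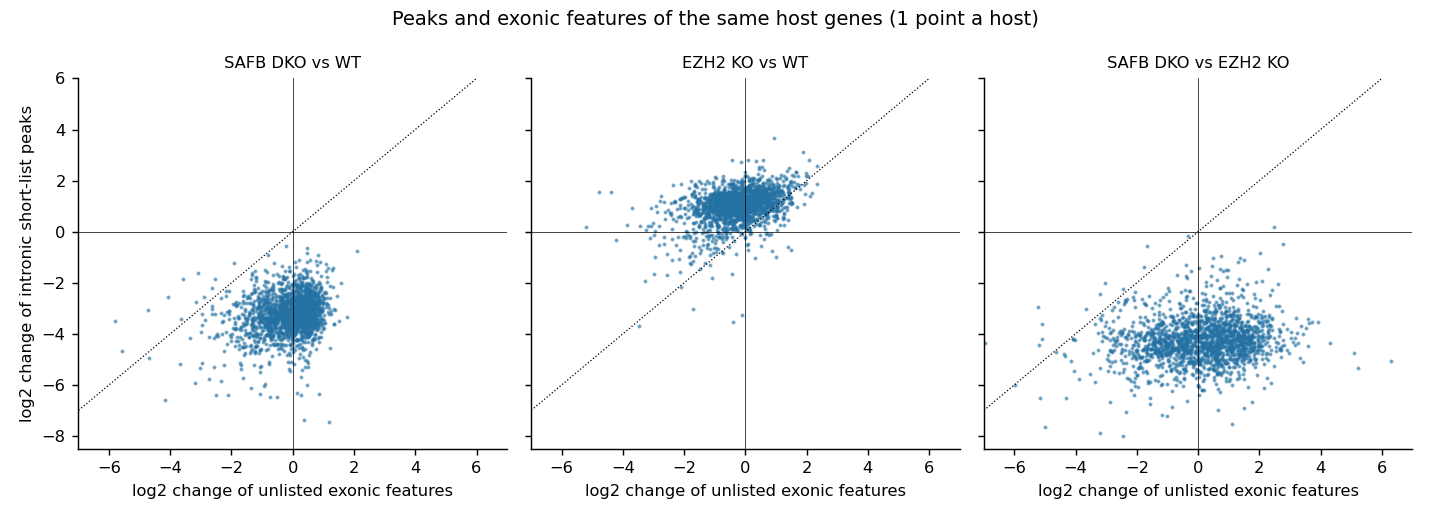
Log2 change of intronic short-list peaks (y axis) against that of exonic features outside the filtered list (x axis), 1 point a host gene, in the 3 comparisons; the dotted line marks equal change and hosts with a group mean of 0 are left out. Points lie mostly below the line in SAFB DKO vs WT (median -3.25 for peaks, 0.02 for exons) and above it in EZH2 KO vs WT (1.08 and -0.22).

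Hosts with many peaks had different values in EZH2 KO. Pde4d, a cAMP phosphodiesterase gene, had the most peaks, 23, the nearest 726 kb from its start. They summed to 21.6 and 34.0 CPM in SAFB DKO, 567 and 744 CPM in EZH2 KO, and 570, 536 and 483 CPM in WT. In SAFB DKO 22 of the 23 fell, while in EZH2 KO 1 rose and the libraries of EZH2 KO and WT overlapped. Dpp6, an auxiliary subunit gene of potassium channels, had 22 peaks, and all fell in SAFB DKO, while 2 fell and 0 rose in EZH2 KO. Its peaks summed to 20.3 and 36.4 CPM in SAFB DKO, 470 and 573 CPM in EZH2 KO, and 466, 522 and 498 CPM in WT.

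Gphn, the gene of the inhibitory synapse scaffold gephyrin, stood at the other end. Its 18 peaks summed to 5.75 and 11.4 CPM in SAFB DKO, 147 and 225 CPM in EZH2 KO, and 68.2, 75.9 and 94.7 CPM in WT, with no overlap. In EZH2 KO 12 of the 18 rose, with a median log2 fold change of 1.31. Immp2l, a mitochondrial inner membrane peptidase gene, had 11 of 15 risen in EZH2 KO (median 1.32), and Ube2e2, a ubiquitin-conjugating enzyme gene, 7 of 16 (median 0.99). Aff3, a gene of the AF4/FMR2 family, had 1 of 16 fallen and 0 risen in EZH2 KO, the 1 call being lost without EZH2 KO replicate 1 or any 1 WT replicate (log2 between -0.99 and -1.28), with 109 and 148 CPM in EZH2 KO against 175, 164 and 155 CPM in WT. Hs6st3 and Gucy1a2, genes of a heparan sulfate sulfotransferase and a guanylate cyclase subunit, had 0 of 19 and 1 of 16 risen, and Vps13b, the gene of a Golgi protein, 4 of 15. In SAFB DKO the falls numbered 14 of 16 in Ube2e2, 14 of 15 in Immp2l, and every peak of Hs6st3, Gphn, Aff3, Gucy1a2 and Vps13b.

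The spread of changes was split into parts between and within hosts, as a description with no test. Over the 2056 peaks of hosts with 5 or more, the SD of the log2 fold change in EZH2 KO against WT was 0.77 overall and 0.45 within hosts. The SD within hosts is taken around each host's own mean, so it cannot exceed that over all. Of the variance, 65.8% lay between hosts, where 13.2% is expected with no host effect. In SAFB DKO against WT the SD was 1.25 overall and 1.05 within hosts, with 29.1% of the variance between hosts against the same 13.2%. These changes carry the counting error of few reads. In 243 of the 273 such hosts every peak fell in SAFB DKO, where 98.2% of all intronic peaks fell. Along the 14 peaks of Etl4, log2 fold changes in SAFB DKO against WT ranged from -3.61 to -2.29 and between 0.50 and 1.495 in EZH2 KO, where 12 rose. Along the 14 peaks of Atrnl1 the falls in SAFB DKO differed in depth, and the deepest left few or no SAFB DKO reads. The peak 7.64 kb from the gene start had 2.83 and 5.06 CPM in SAFB DKO against 32.0, 34.9 and 27.8 CPM in WT, and that at 367 kb had no SAFB DKO read and at least 45.1-fold more in WT.

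**Figure D5:**
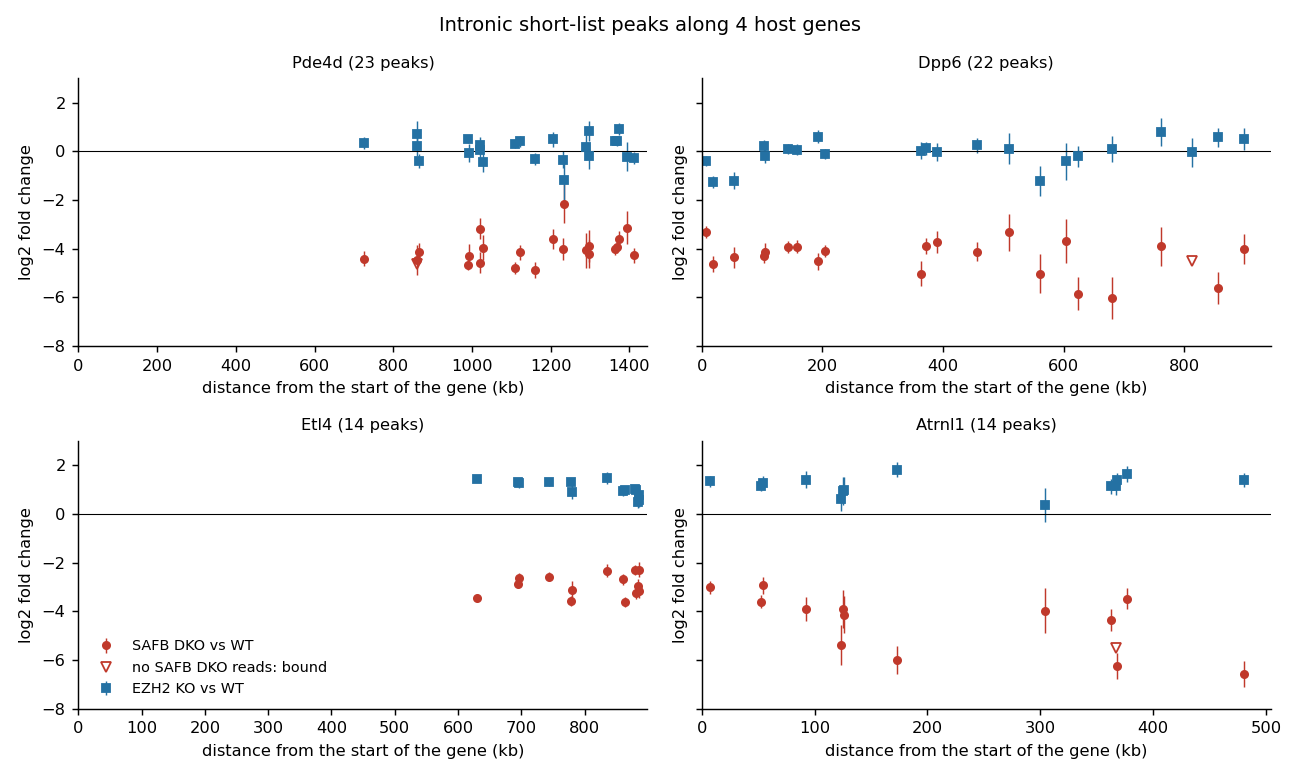
Log2 fold change ± SE of each intronic short-list peak against its distance from the gene start (kb) in Pde4d (23 peaks), Dpp6 (22), Etl4 (14) and Atrnl1 (14), for SAFB DKO vs WT and EZH2 KO vs WT; open triangles mark bounds for peaks without SAFB DKO reads. SAFB DKO points lie below 0 along every gene, and EZH2 KO points lie near 0 in Pde4d (median 0.24) and Dpp6 (0.05) and above 0 in Etl4 (1.00).

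Counts over gene groups put these hosts in context. In SAFB DKO they are to be read against 98.2% fallen and a median log2 of -3.33 over all intronic peaks, and in EZH2 KO against 49.7% risen and a median of 0.97. Group medians in SAFB DKO lay between -4.10 in voltage-gated ion channel subunits and -3.09 in DNA replication and repair, and no group was tested against the rest. Genes of DNA replication and repair had 51 peaks in 23 hosts, of which 50 fell in SAFB DKO and 37 rose in EZH2 KO (median log2 -3.09 and 1.15). Rad51b, a homologous recombination gene, had 8 peaks that summed to 33.0 and 36.4 CPM in SAFB DKO, 546 and 755 CPM in EZH2 KO, and 258, 255 and 243 CPM in WT. Rev1, a translesion polymerase gene, and Orc3 each had 1 peak that fell in SAFB DKO and rose in EZH2 KO.

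RNA-binding, splicing and decay factors had 37 peaks in 14 hosts, of which 37 fell in SAFB DKO and 22 rose in EZH2 KO (median -3.58 and 1.03). Pum2, a translational repressor gene, had 1 peak with 11.4 and 11.5 CPM in SAFB DKO, 258 and 314 CPM in EZH2 KO, and 141, 136 and 131 CPM in WT, and the groups did not overlap. Its exonic features stood in the opposite order, with 130 and 174 CPM in SAFB DKO, 33.7 and 45.0 CPM in EZH2 KO, and 84.1, 97.2 and 113 CPM in WT. Rbm33 rose likewise in EZH2 KO, and Cnot4, a ubiquitin ligase gene of the CCR4-NOT complex, did not pass (219 and 375 CPM in EZH2 KO against 173, 164 and 242 CPM in WT).

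Chromatin remodellers and histone modifiers had 17 peaks in 9 hosts, of which 17 fell in SAFB DKO and 12 rose in EZH2 KO (median -3.38 and 0.91). In Crebbp, the gene of a histone acetyltransferase, 4 peaks summed to 15.3 and 20.4 CPM in SAFB DKO, 319 and 457 CPM in EZH2 KO, and 176, 165 and 211 CPM in WT, and all 4 rose in EZH2 KO. Arid2, Kdm4c and Nsd3, genes of a chromatin remodelling subunit, a histone demethylase and a histone methyltransferase, had 2 of 3, 1 of 1 and 1 of 1 risen. Polycomb subunits and partners had 13 peaks in 4 hosts, of which 13 fell in SAFB DKO and 8 rose in EZH2 KO (median -3.42 and 0.89). Phc2, a subunit of Polycomb repressive complex 1, had 2 peaks at 1.14 and 0.969 CPM in SAFB DKO, 63.0 and 68.3 CPM in EZH2 KO, and 23.6, 18.2 and 13.3 CPM in WT. Pcgf5, Auts2 and Scmh1 were the other hosts, with 3 of 3, 2 of 6 and 1 of 2 risen. Of the pluripotency genes, Lin28b, an RNA-binding regulator of let-7, had 3 peaks and Tet1, which oxidises methylcytosine, had 1, and all 4 fell in SAFB DKO. The Tet1 peak had 0.547 and 0.215 CPM in SAFB DKO, 8.72 and 13.1 CPM in EZH2 KO, and 1.52, 1.93 and 1.25 CPM in WT and rose in EZH2 KO, whereas those of Lin28b did not pass.

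Genes better known from neurons were also among the hosts. Voltage-gated ion channel subunits had 31 peaks in 11 hosts, of which 30 fell in SAFB DKO and 6 rose and 3 fell in EZH2 KO (median -4.10 and -0.17). Cacna1a, a calcium channel gene, had 2 peaks at 6.02 and 6.46 CPM in SAFB DKO, 145 and 182 CPM in EZH2 KO, and 82.4, 83.3 and 63.1 CPM in WT, and both rose in EZH2 KO. Kcnq3, a potassium channel gene, had 4 peaks at 0.456 and 1.61 CPM in SAFB DKO, 19.8 and 31.5 CPM in EZH2 KO, and 27.0, 29.0 and 22.6 CPM in WT, with overlap between EZH2 KO and WT and no call. Cacna2d1 had 3 of 5 risen. Ionotropic glutamate and GABA receptor genes had 20 peaks in 8 hosts, all fallen in SAFB DKO and 6 risen in EZH2 KO (median -3.67 and 0.39). Gabrg3 and Grik3, genes of a GABA and a kainate receptor subunit, had 2 of 2 and 1 of 2 risen, while Grik4 had 0 of 2. Neural adhesion and axon guidance genes had 68 peaks in 19 hosts, all fallen in SAFB DKO, and 20 rose and 2 fell in EZH2 KO (median -3.47 and 0.59). Tenm4 and Tenm3, teneurin genes, had 9 of 13 and 5 of 9 risen, while Sema3e, a semaphorin gene, and Magi1 had 0 of 6 and 1 of 7.

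The largest group was that of guanine exchange factors, GTPase activators and actin regulators, with 139 peaks in 41 hosts. Of these 134 fell in SAFB DKO and 63 rose in EZH2 KO (median -3.23 and 0.82). Dst, a cytoskeletal linker gene, had 11 peaks that summed to 28.6 and 26.4 CPM in SAFB DKO, 547 and 710 CPM in EZH2 KO, and 318, 303 and 309 CPM in WT, with 9 risen in EZH2 KO. Diaph2, an X-linked formin gene, had 11 of 12 fallen in SAFB DKO and 2 risen in EZH2 KO, and the 2 peaks of Utrn, the gene of the dystrophin relative utrophin, had 132 and 218 CPM in EZH2 KO against 178, 170 and 176 CPM in WT, with overlap and no call. Ubiquitin ligases and proteases had 50 peaks in 21 hosts, of which 49 fell in SAFB DKO and 20 rose and 1 fell in EZH2 KO (median -3.26 and 0.81). Fbxl17, an F-box gene, had 4 of its 13 peaks risen in EZH2 KO, Ube3c 2 of 3 and Cul4a, a cullin gene, 1 of 4. Peaks without SAFB DKO reads were 11 in all these groups, and setting them at their bound left every group's median as given.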

How the data were processed

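RNA precipitated from 7 cultures was sequenced after ribosomal RNA removal, with reads assigned to mm10. The authors deposited counts per feature, made with featureCounts 2.0.3 set to reverse-stranded reads that passed a filter, per the file headers. The counts were used as deposited, and 3 value columns matched no sample and were not used. How the authors called and filtered peaks is not given in the sources used here, but the short list follows a minimum of the pooled WT count.

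Features were tested with edgeR 4.0.16 (R 4.3.3), quasi-likelihood, in 1 fit of 7 libraries by group, with TMM factors from tested features outside the authors' filtered list and Benjamini-Hochberg adjustment over 192964 features at 0.05. DESeq2 1.42.0 was an alternative. Hosts' peaks and own exonic features were fitted with the library as a block. Each SE was derived from the edgeR test, as the absolute log2 fold change over the square root of its F statistic. Shares and ratios had exact permutation tests (scipy 1.17.1). Intervals and floors (3 counts over a group) cover counting error only, and no label mentions molecular identifiers. Replicates are separate clones or the parental line, per the labels, each with 1 precipitate, so p-values measure the spread between these samples.

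Peaks were annotated with GENCODE M21 basic transcripts, with the precedence coding sequence, UTR, noncoding exon, intron. Sequence came from GENCODE M21 transcripts. The members, gene lists and rules were chosen with earlier results of these data known. Named were the 10 peaks of highest CPM, the 5 lowest and 5 highest called changes per comparison at 5 CPM or more, the 10 hosts with most peaks, up to 4 hosts per gene list, the 3 highest WT levels without SAFB DKO reads, and the 4 lowest and highest called hosts against exons, passing over hosts with a compartment at 0 in any library; a few items are not reported here. Alternatives were other scalings and count filters, stricter intron and exon definitions, each library left out and a replicate block. The tests were tested on simulated data.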

Additional observations from a re-analysis of the deposited data

How the results depend on the processing

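No called direction of a named peak or host turned under the alternatives run. Requiring a mean of at least 50 counts left 3555 peaks, of which 3552 fell in SAFB DKO against WT and 3552 against EZH2 KO, since fewer were tested. In EZH2 KO against WT the number of fallen peaks, 43, became 90 by column totals, 14 at a mean of 50 counts and 18 with the replicate block, which also left 1874 risen. At a mean of 50 counts 2965 of 3555 peaks rose (median 1.31), against 2770 of 5570 (median 0.97). By column totals and by DESeq2, 1 peak rose in SAFB DKO against EZH2 KO. Leaving out 1 library gave 5069 to 5551 fallen and 0 to 0 risen in SAFB DKO against WT, 1774 to 3108 risen and 11 to 232 fallen in EZH2 KO against WT, and 5241 to 5451 fallen and 0 to 4 risen in SAFB DKO against EZH2 KO. Without EZH2 KO replicate 2, 90.2% of the calls in EZH2 KO against WT were rises, against 98.5% with all libraries. Host counts ranged over 1704 to 1787, 1008 to 1258 and 1734 to 1773, and share folds over 0.116 to 0.133, 1.68 to 1.81 and 0.0663 to 0.0761. The cause of these shifts was not tested. An alternative chosen after seeing the data left out peaks mostly covered by exons of transcripts outside the basic set, and of the 5464 others 5366 fell in SAFB DKO against WT and 2701 rose in EZH2 KO against WT. Of comparisons of single peaks and hosts, 118 lost their call and 1854 did not.

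No paired analysis was possible for the comparisons with SAFB DKO, because both SAFB DKO labels carry the same number. For EZH2 KO and WT the numbers are shared, and deviations from the group means of same-numbered samples had r = 0.0211 over tested features and 0.0672 over the intronic peaks, so the numbers were not taken to pair samples. With the block the calls of Jph1, the Sema6a peak with log2 -1.23, Ror1, Hs6st2 and Setbp1 were lost. The number of reads limits fold changes of peaks with few or none: 500 and 456 peaks had no read in the SAFB DKO libraries, against 71 and 10 in EZH2 KO and 0 in WT, although the EZH2 KO libraries had fewer total counts.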

Other observations

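With the peaks split into 4 equal bins, the share that rose in EZH2 KO against WT moved with host length, width and WT level, as a description of these libraries with no test. From short to long hosts, 58.9%, 56.1%, 46.7% and 35.3% of peaks rose, with median log2 fold changes of 1.09, 1.05, 0.93 and 0.79. In SAFB DKO against WT the medians were -3.07, -3.26, -3.42 and -3.61. Spearman's rho with host length was -0.22 in SAFB DKO against WT and -0.21 in EZH2 KO against WT (n = 5320 peaks, which share the libraries), and that with relative position in the gene was 0.01 in each. From narrow to wide peaks, 29.5%, 43.1%, 55.5% and 70.8% rose in EZH2 KO. From low to high WT level, 21.97%, 38.2%, 60.2% and 78.5% rose. The share called moves with depth, while the medians by WT level were 0.78, 0.93, 1.05 and 1.04.

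Peaks in the first intron and in later introns had close medians, at -3.38 and -3.32 in SAFB DKO against WT and 0.94 and 0.98 in EZH2 KO against WT. The 406 peaks of noncoding and pseudogene hosts had medians of -3.18 and 1.13 in those comparisons, and 217 rose in EZH2 KO, against -3.34 and 0.96 for 4914 peaks of protein-coding hosts. On chromosome X, 222 peaks had medians of -3.66 and 0.83, and autosomal peaks -3.31 and 0.98. Intronic peaks of the filtered list that missed the short list had medians of -3.05 and 0.67 (4533 tested). None of these differences between sets was tested.

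The density of GAAGA was similar in peaks of different response. Peaks that rose in EZH2 KO had 3.32 matches per kb and those not called 3.23, and peaks below their median change in SAFB DKO had 3.28 and the others 3.32. Filtered intronic peaks outside the short list had 3.35. The Rfx7 peak, in the gene of a regulatory factor X family member, had 4.97 and 6.24 CPM in SAFB DKO, 91.3 and 140 CPM in EZH2 KO, and 61.1, 67.7 and 68.1 CPM in WT. The Cep57l1 peak had 22.03 and 25.8 CPM in SAFB DKO, 348 and 426 CPM in EZH2 KO, and 147, 153 and 153 CPM in WT. Elmo1, a cell engulfment gene, had 8 matches in 699 covered bases and 0.319 and 0 CPM in SAFB DKO against 6.99, 7.15 and 5.53 CPM in WT.

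Peaks of Ank3, which encodes the ankyrin that organizes axon initial segments, had different values. The peak in intron 2 had a log2 fold change of -3.20 in SAFB DKO against WT, and 3 peaks within intron 36 had -1.75, -1.39 and -1.81. Same-strand exons of transcripts outside the basic set covered the first and second of these 3 in full and 96.9% of the third, so they can hold exonic RNA of those transcripts. The middle one of these, whose window is shown in the report, had 6.66 and 9.90 CPM in SAFB DKO, 36.5 and 37.1 CPM in EZH2 KO, and 22.02, 21.2 and 21.6 CPM in WT. In Sema6a all 5 peaks had lower means in EZH2 KO than in WT, at log2 -1.46 to -0.76, and 3 of them passed the test.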
